A study of Mus musculus with 13 samples.

Results

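The genes described here encode the proteins that write, copy, remove and read DNA methylation: the maintenance pair Dnmt1 and Uhrf1, the de novo methyltransferases Dnmt3a and Dnmt3b, the dioxygenases Tet1, Tet2 and Tet3, and the methyl-CpG binding proteins Mbd1 and Mbd2. They were chosen by name for this role and not by a rule on their values, but with earlier results of these data known. All 9 were found among the 23366 genes for which RNA of the whole pancreas was sequenced in 13 female mice. All mice were of the reprogrammable i4F-B strain, which carries a ubiquitous OSKM cassette (Oct4, Sox2, Klf4 and Myc, induced by doxycycline) inserted in the Pparg gene. The 4 young mice (13 weeks) and the 5 old mice (55 weeks) carried the cassette and received no doxycycline, and the 4 old-OSKM mice drank doxycycline for 7 days and recovered for 2 weeks, which brought them to 58 weeks by the sample labels. Doxycycline, the cassette and the 3 additional weeks of age therefore cannot be told apart. By the study's account the cassette is widely induced in acinar cells and not in most endocrine cells, so a whole-pancreas library mixes cells that did and did not express it.

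In mammals, a methyl group on the cytosine of a CpG is copied to the new strand after replication by DNMT1, which UHRF1 recruits to hemimethylated DNA, while DNMT3A and DNMT3B can methylate CpGs that carried no mark. TET enzymes oxidize methylcytosine in a reaction that uses 2-oxoglutarate, and the oxidized base is then lost by dilution through cell division or replaced by base excision repair that starts with the glycosylase TDG. MBD1 and MBD2 bind methylated CpGs and bring in repressive complexes, such as the NuRD complex in the case of MBD2. Pancreas is mostly made of acinar cells, which rarely divide in the healthy adult, and DNMT1 and UHRF1 are typical of dividing cells.

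Expression is given as log2 RPKM (reads scaled to transcript length and to the reads mapped in a library), as deposited, and each difference between groups is a difference of log2 RPKM means. A gene was called when its fold change was over 1.5 and its raw p under 0.01 in limma's moderated test over all 23366 genes, and Benjamini-Hochberg adjusted p-values over all genes are given beside it. Neither counts nor read totals per mouse are part of the values, so the depth behind each value is unknown (the methods give 1 general number of reads for all samples). In the 8410 genes with a mean log2 RPKM above 0, old-OSKM mouse 4 lay more than 1 log2 unit from the median of the 13 mice in 448 genes and old-OSKM mouse 1 in 105, against 3 to 61 in the other mice. Calls given below that involve the old-OSKM mice are therefore also given without these mice where that changes them. Calls in several lists of cell type markers also changed without these mice and are not given. Without them 0 of the 9 genes were called against old mice (-0.13 to 0.48) or against young mice (-0.48 to 0.22). Young mouse 3 had a summed RPKM of 68.6 over a list of liver genes, against 3.39 to 7.33 in the other mice, and this list was chosen with the data in view. The tissue label fitted the acinar markers, 12 digestive enzymes and acinar transcription factors, which summed to between 10234 and 10915 RPKM in every mouse. The authors' quantile normalization gives every library nearly the same set of values, and some of these enzymes hold the highest ones. The narrow range of the sum therefore cannot show that acinar content was alike.

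To show the DNA context of the members at the low end of the expression range, the upstream DNA of Tet1, Dnmt3b and Uhrf1 was read from RefSeq promoter windows (build GRCm38.p6, the same assembly as mm10), leaving out every base that an annotated transcript covers. Tet1, the member that differed with age, lies on the minus strand at chr10:62804570-62887469, Dnmt3b on the plus strand at chr2:153649411-153687730 and Uhrf1 on the plus strand at chr17:56303337-56323486. The stretches below are chr10:62887513-62887574 (62 bases, minus strand), chr2:153649199-153649410 (212 bases, plus strand) and chr17:56303087-56303320 (234 bases, plus strand), written 5′ to 3′ with each CG, the dinucleotide that the encoded proteins act on, in capitals.
Tet1: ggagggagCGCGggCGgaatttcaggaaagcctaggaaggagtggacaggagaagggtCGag
Dnmt3b: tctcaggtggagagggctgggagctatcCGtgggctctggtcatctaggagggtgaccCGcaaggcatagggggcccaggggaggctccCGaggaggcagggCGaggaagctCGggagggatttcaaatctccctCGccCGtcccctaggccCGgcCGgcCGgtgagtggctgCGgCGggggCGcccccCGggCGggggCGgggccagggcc
Uhrf1: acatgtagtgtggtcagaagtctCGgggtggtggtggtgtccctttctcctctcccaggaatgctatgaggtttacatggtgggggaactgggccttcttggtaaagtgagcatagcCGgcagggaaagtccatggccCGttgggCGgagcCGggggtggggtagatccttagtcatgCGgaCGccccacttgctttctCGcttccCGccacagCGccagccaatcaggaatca
These stretches hold 4, 16 and 10 CGs, which read the same on both strands. CGs were also counted in the RefSeq windows of 250 bases before an annotated start. These lie inside the span of the gene for Tet2, Tet3, every start of Dnmt3a and some starts of Dnmt1 and Uhrf1, and in part for Tet1 and Dnmt3b. Tet1 had 15 CGs, Tet3 17 and Tet2 51, against a median of 6 over 32851 RefSeq promoters. Of those promoters, 27.3% held at least as many as Tet1, 23.5% as many as Tet3 and 0.067% as many as Tet2. Dnmt3b had 21 CGs in that window. Dnmt1, Uhrf1 and Dnmt3a have several annotated starts, with 2 to 26, 10 to 30 and 15 to 40 CGs respectively, and 7 of the 9 genes were in the promoter table. CG counts describe the sequence only, and no methylation was measured in these libraries.

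Mbd2 and Tet3 were the most expressed members, and Tet1 and Uhrf1 the least. Since RPKM is scaled by transcript length, the levels of different genes can be compared on it. Over the 13 mice, the mean log2 RPKM was 2.35 ± 0.08 (SD, n = 13) for Mbd2, 1.08 ± 0.12 for Tet3, 0.78 ± 0.16 for Dnmt3a, 0.64 ± 0.21 for Mbd1 and 0.55 ± 0.16 for Dnmt1. It was 0.06 ± 0.21 for Tet2, -0.92 ± 0.49 for Dnmt3b, -1.70 ± 0.36 for Tet1 and -1.86 ± 0.92 for Uhrf1. On the RPKM scale this is a range of means from 5.09 for Mbd2 to 0.316 for Tet1 and 0.332 for Uhrf1. Mbd2 was above 94.8% and Uhrf1 above 42.4% of all genes in the table. Comparing neighbours in this order within each mouse with a two-sided exact sign-flip permutation test, 6 of the 8 pairs differed at an adjusted p under 0.05. Mbd1 was above Dnmt1 in 10 of 13 mice, a difference of 0.10 ± 0.23 (SD) that the exact permutation test did not separate (adjusted p = 0.177). Tet1 was above Uhrf1 in 8 of 13 mice, a difference of 0.16 ± 1.06 (adjusted p = 0.595, exact permutation test). The de novo enzyme Dnmt3a was the higher of its pair, and Tet3 the highest of the dioxygenases, in every mouse.

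**Figure D1:**
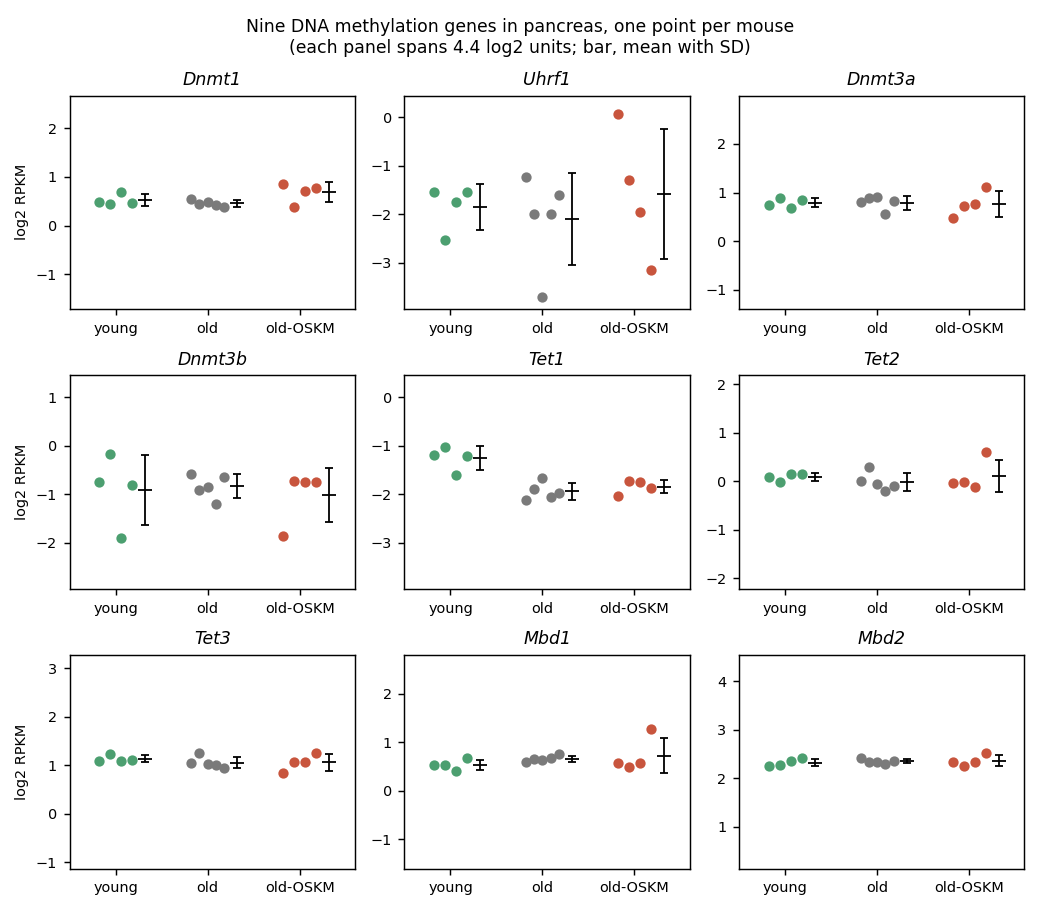
Log2 RPKM of the 9 genes in each mouse, by group (green, young, n = 4; grey, old, n = 5; red, old-OSKM, n = 4); bars give the mean and SD, and every panel spans the same 4.4 log2 units. Tet1 is the panel in which the young mice lie above all other mice, and Uhrf1 is the panel with the widest scatter within groups.

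Of the 9 genes, Tet1 was the one called as changed with age, and it was lower in old mice. Its log2 RPKM was -1.19, -1.03, -1.61 and -1.22 in the 4 young mice and -2.12, -1.90, -1.67, -2.05 and -1.98 in the 5 old mice. Every old mouse was therefore below every young mouse, although old mouse 3 and young mouse 3 lay only a little apart. The old mean was 0.68 lower (SE 0.12, 95% interval -0.95 to -0.41), 1.60-fold higher in young mice, with limma p = 0.000148 and an adjusted p of 0.0935, while the two-sided exact permutation test gave p = 0.00794, the smallest that 5 against 4 mice allow, and 0.214 after adjustment over the 27 tests of the 9 genes in 3 contrasts. By limma it ranked 37 of 23366 genes. On the RPKM scale the means were 0.422 ± 0.068 (SD, n = 4) in young and 0.262 ± 0.032 (n = 5) in old mice. Of all genes 0.886% were called between old and young mice in either direction and 0.437% as lower in old mice, while 1.22% were lower in every old mouse than in every young one. Among the members, 1 of 9 was called, and it did not pass the adjusted threshold, which 0.0813% of genes did. In bulk tissue, fewer cells of a type and less RNA per cell cannot be told apart.

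In old-OSKM mice Tet1 was at -2.04, -1.73, -1.75 and -1.87, all inside the range of the old mice and below all young mice. Compared with old mice the old-OSKM mean was 0.09 higher (SE 0.12, 95% interval -0.17 to 0.36, adjusted p = 0.712), with an upper bound below the 0.68 that separated old from young. Without old-OSKM mice 1 and 4 it was 0.20 higher (95% interval -0.15 to 0.55, adjusted p = 0.980). Against young mice the old-OSKM mean was 0.59 lower (SE 0.13, 95% interval -0.87 to -0.30, limma p = 0.000757, adjusted p = 0.398; exact permutation p = 0.0286, the smallest that 4 against 4 mice allow, and 0.386 after adjustment). This was a fold change of 1.503, only just past the threshold. In that contrast 0.625% of all genes were called, 0.171% as lower in old-OSKM mice, and 0.813% were lower in every old-OSKM mouse than in every young one, and 0.0428% passed the adjusted threshold. Both contrasts against young mice share these 4 animals. Leaving out 1 mouse at a time, the age difference of Tet1 stayed called in 13 of 13 fits (-0.80 to -0.60). The call between old-OSKM and young mice was lost in 5 of 13 fits (-0.70 to -0.51), without young mouse 1, 2 or 4 or old-OSKM mouse 1 or 4, and without both old-OSKM mice 1 and 4 (-0.48). Within the sample identifiers 609 to 621, which hold 2 young and 4 old mice, the age difference of Tet1 was -0.83. Within identifiers 641 to 643 the 2 young mice were at -1.61 and -1.22 and the single old mouse at -1.98.

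**Figure D2:**
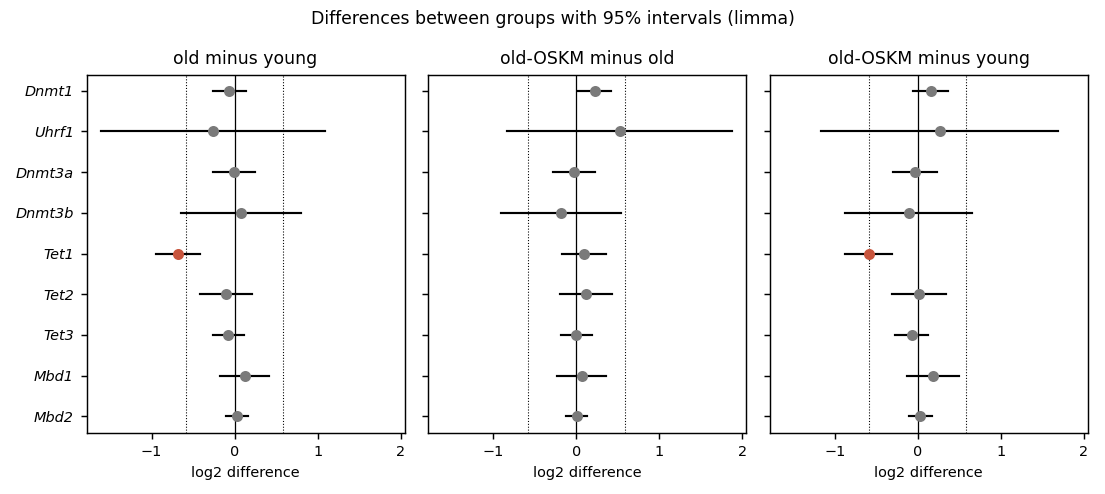
Difference in log2 RPKM between groups for each of the 9 genes (points; red, called; grey, not called) with limma 95% intervals (lines); dotted lines mark a 1.5-fold change in either direction. Tet1 is called in both contrasts against young mice, at -0.68 and -0.59, and the intervals of Mbd2 are the narrowest and those of Uhrf1 the widest.

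Tet2 and Tet3 were not called in any contrast. Tet3, which oxidizes the paternal genome in the zygote, was at 1.13 ± 0.07 (SD, n = 4) in young, 1.05 ± 0.12 (n = 5) in old and 1.05 ± 0.17 (n = 4) in old-OSKM mice. Its difference between old and young mice was -0.07 (95% interval -0.26 to 0.11). Tet2, which is often mutated in aging blood, was at 0.10, -0.02, 0.15 and 0.14 in young mice, at 0.01, 0.29, -0.06, -0.21 and -0.09 in old mice and at -0.03, -0.02, -0.13 and 0.60 in old-OSKM mice. Old-OSKM mouse 4 was the highest of the 13 for Tet2, and the other old-OSKM mice lay within the range of the old mice. Summed over the 3 dioxygenases, Tet1 held 11.4 ± 1.59% (SD, n = 4) of the Tet RPKM in young, 7.87 ± 1.04% (n = 5) in old and 8.14 ± 1.13% (n = 4) in old-OSKM mice. Tet3 held 59.5 ± 1.43%, 62.3 ± 1.27% and 60.4 ± 2.72%, and Tet2 29.1 ± 2.3%, 29.8 ± 1.45% and 31.5 ± 3.82% in the same order of groups. The Tet1 shares, which contain the same Tet1 values as the differences above, ranged from 9.18% to 12.8% in young mice and from 6.93% to 9.46% in old mice, so on this measure the ranges overlapped. The ratio of Tet1 to Tet3 in the same library was -2.39 ± 0.21 on the log2 scale in young, -3.0 ± 0.19 in old and -2.90 ± 0.15 in old-OSKM mice. A scaling factor for a whole library cannot alter this ratio, but the quantile normalization of these values works by rank and can. These ratios ranged from -2.70 to -2.26 in young, from -3.16 to -2.70 in old and from -3.12 to -2.80 in old-OSKM mice, and the lowest young and highest old mouse were nearly equal.

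**Figure D3:**
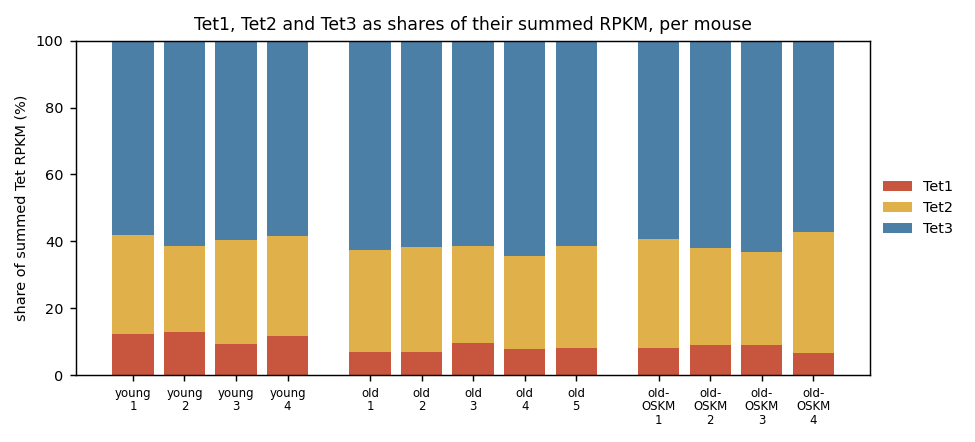
Share of the summed RPKM of Tet1, Tet2 and Tet3 held by each gene, one stacked bar per mouse from 0 to 100%. Tet1 takes 9.18% to 12.8% in young, 6.93% to 9.46% in old and 6.55% to 8.98% in old-OSKM mice, and Tet3 is the largest share in every mouse.

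A few markers of other cells were called with age, where 0.886% of all genes were, and did not pass the adjusted threshold. The fibroblast and stellate list was lower in old mice for 8 of 8 genes, 2 of them called (Col1a1 and Col3a1, fibrillar collagens, adjusted p = 0.469 and 0.511), and its summed RPKM was 27.5 to 54.7 in young and 20.8 to 26.9 in old mice. In old-OSKM mice 1 to 4 that sum was 42.1, 29.2, 27.1 and 73.7, highest in the mice that stand apart. B and plasma cell markers were higher in old mice for 7 of 7 genes, 1 of them called (Jchain, the joining chain of antibodies, adjusted p = 0.551), and summed to 1.01 to 2.71 RPKM in young, 2.88 to 8.43 in old and 4.02 to 13.7 in old-OSKM mice (4.34 and 4.02 in old-OSKM mice 2 and 3). The remaining lists had 0 called genes with age. T cell markers were higher in old mice for 6 of 6 genes and islet markers for 6 of 9. Macrophage, endothelial and duct markers were lower for 6 of 7 genes each, adipocyte markers for 5 of 7 and erythroid markers for 4 of 5. The 12 acinar markers had 0 called genes, with 5 higher, 5 lower and 2 equal in old mice, and summed to 10762.5 to 10915 in young, 10234 to 10753 in old and 10475 to 10712 in old-OSKM mice. The 2 equal genes, Ctrb1 and Cela2a, were at 2208 and 2054 RPKM in every mouse. Values of the highest genes are set by rank in quantile normalization, so these sums and counts cannot show that acinar content was stable. Pnlip, pancreatic lipase, was singled out after its values were seen, and was at 1573 RPKM in every young mouse and at 1211 to 1374 in the old and old-OSKM mice. Without Pnlip the sums overlapped, at 9189 to 9342 in young, 8969 to 9379 in old and 9101 to 9337 in old-OSKM mice. The values contain no zeros, so a low value does not show that a marker was detected. The part of these cell types in the difference of Tet1 was not tested.

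The maintenance pair was not called in any contrast. Dnmt1 was at 0.48, 0.45, 0.70 and 0.47 in young, 0.56, 0.45, 0.48, 0.41 and 0.38 in old and 0.86, 0.39, 0.71 and 0.77 in old-OSKM mice. Thus 3 of 4 old-OSKM mice were above every old mouse, and old-OSKM mouse 2 was among the lowest. The mean was 0.22 higher in old-OSKM than in old mice (95% interval 0.03 to 0.42, 1.17-fold), with limma p = 0.0305, an adjusted p of 0.547 and an exact permutation p of 0.0635 (0.482 after adjustment), the lowest limma p of the 9 members in this contrast. Of all genes 8.07% had a raw p under 0.05 in it, 0.753% were called and 0.00428% passed the adjusted threshold. Without old-OSKM mice 1 and 4 the difference was 0.09 (adjusted p = 0.980), and without old-OSKM mouse 2 it was 0.32 (adjusted p = 0.326). Between old and young mice Dnmt1 differed by -0.07 (95% interval -0.27 to 0.13).

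Uhrf1, the partner that guides DNMT1 to replicated DNA, varied more between mice of a group than between groups. It was at -1.55, -2.53, -1.75 and -1.55 in young, -1.23, -2.0, -3.70, -1.99 and -1.60 in old and 0.06, -1.29, -1.96 and -3.14 in old-OSKM mice, so that the old-OSKM mice spanned 3.20 log2 units and overlapped both other groups. The SD was 0.47, 0.95 and 1.34 in the 3 groups, against a median of 0.36, 0.36 and 0.40 for genes within 0.5 log2 units of its level. Old mouse 3 was at 0.077 RPKM and old-OSKM mouse 4 at 0.113 RPKM. At such values a low level and a failure to detect the RNA cannot be told apart. The differences were -0.26 (95% interval -1.61 to 1.09) with age and 0.52 (-0.83 to 1.87) between old-OSKM and old mice, and without old-OSKM mouse 1 the latter was -0.03. The age interval includes a change of 2-fold in either direction.

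The 20 S phase and mitosis genes summed to 21.2, 17.5, 13.6 and 10.6 RPKM in old-OSKM mice 1 to 4, and Uhrf1 ranked these mice in the same order. The sum was 12.4 to 16.2 in young and 11.8 to 13.2 in old mice, in which that order did not hold: young mouse 2 had the highest sum (16.2) and the lowest young Uhrf1, and old mouse 3 the second highest old sum (12.6) and the lowest Uhrf1. Single genes of the list could also differ in order, as Mki67 did. Mki67, a proliferation antigen, was at 0.52, -0.78, -2.39 and -2.04 in old-OSKM mice and Top2a, the topoisomerase of mitotic chromosomes, at 0.34, -1.07, -1.94 and -2.09. Mcm5, a subunit of the replicative helicase, was the gene of this list that was called between old-OSKM and old mice (1.02 higher, SE 0.30, adjusted p = 0.547), with 17 of 20 genes higher and a median difference of 0.40 against -0.04 over all genes (18 of 20 and 0.38, against 0.01, without old-OSKM mice 1 and 4). That call was lost in 5 of 13 fits with a mouse left out (0.74 to 1.24), without old mouse 3, 4 or 5 or old-OSKM mouse 1 or 2, and without old-OSKM mice 1 and 4 together (0.93). Old mice had lower values than young mice in 18 of 20 genes of the list, with 0 called by limma, 3 at an unadjusted p under 0.05 and a median of -0.26. Dnmt1 did not follow this order, since old-OSKM mouse 4, with the lowest sum, had the second highest Dnmt1 value.

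**Figure D4:**
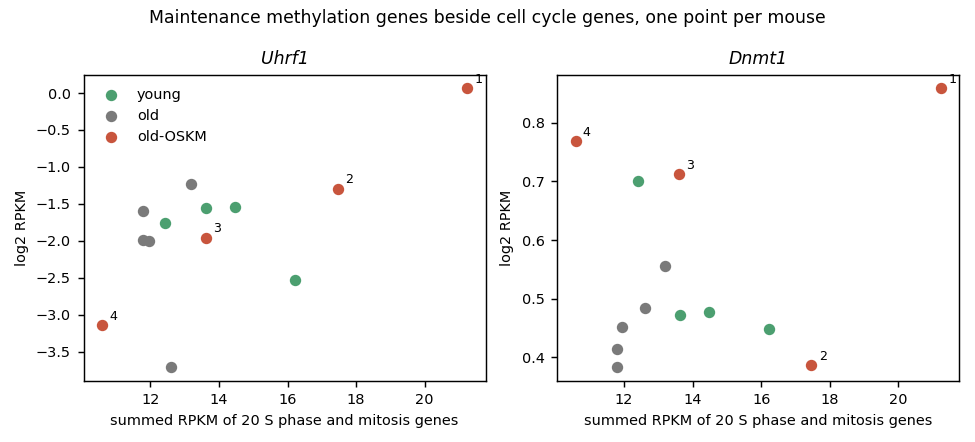
Log2 RPKM of Uhrf1 (left) and Dnmt1 (right) against the summed RPKM of 20 S phase and mitosis genes, one point per mouse (green, young; grey, old; red, old-OSKM with the number of the mouse). Old-OSKM mouse 1 is highest and mouse 4 lowest for both the sum (21.2 and 10.6) and Uhrf1 (0.06 and -3.14), whereas Dnmt1 is 0.86, 0.39, 0.71 and 0.77.

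The de novo methyltransferases showed no called difference. Dnmt3a, the main de novo enzyme of adult tissues, was at 0.79 ± 0.09 (SD, n = 4) in young, 0.79 ± 0.14 (n = 5) in old and 0.76 ± 0.26 (n = 4) in old-OSKM mice. Its intervals were -0.26 to 0.25 with age and -0.28 to 0.23 between old-OSKM and old mice, which are all under a 1.5-fold change. Dnmt3b, best known from the early embryo, was at -0.75, -0.17, -1.91 and -0.82 in young, -0.58, -0.91, -0.86, -1.19 and -0.63 in old and -1.86, -0.72, -0.74 and -0.75 in old-OSKM mice. In both the young and the old-OSKM group 1 mouse was more than 1 log2 unit below the rest, young mouse 3 and old-OSKM mouse 1. The differences of Dnmt3b were 0.08 (95% interval -0.65 to 0.80) with age and -0.18 (-0.91 to 0.54) between old-OSKM and old mice. Without old-OSKM mice 1 and 4 the latter became 0.10.

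Mbd2 was the steadiest member. It was between 2.25 and 2.52 in all 13 mice, and its difference with age was 0.03 (95% interval -0.10 to 0.16), the narrowest interval of the 9 genes. Mbd1, which joins methylated DNA to histone methyltransferases, was at 0.53, 0.54, 0.42 and 0.67 in young, 0.59, 0.66, 0.64, 0.67 and 0.75 in old and 0.57, 0.50, 0.57 and 1.27 in old-OSKM mice. Old mice were above the young mean in 5 of 5 cases, by 0.12 in the mean (95% interval -0.17 to 0.42), with an exact permutation p of 0.0714 and an adjusted p of 0.482 over the 27 tests. Old-OSKM mouse 4 was well above the other 12 mice for Mbd1, and without old-OSKM mice 1 and 4 the difference from old mice changed from 0.07 to -0.13. The 8 members other than Tet1 differed by -0.26 to 0.12 between old and young mice (adjusted p = 1 for each) and by -0.11 to 0.26 between old-OSKM and young mice.

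Of the 68 other genes of DNA methylation and its metabolism, 1 was called with age beside 0.886% of all genes. It was Cdca7l, a homologue of the CDCA7 protein that activates the remodeler HELLS, and it was lower in old mice by 0.97 (SE 0.18, adjusted p = 0.104), 1.96-fold. Cdca7l was at -1.05, -1.38, -1.56 and -1.55 in young, -2.23, -2.11, -2.52, -2.67 and -2.27 in old and -1.38, -1.58, -2.22 and -1.91 in old-OSKM mice. The old mice were all below the young mice, and 3 of 4 old-OSKM mice were above all old mice. It was also the 1 gene of the 68 called between old-OSKM and old mice (0.59 higher, SE 0.18, adjusted p = 0.547), where 0.753% of all genes were called. These contrasts share the 5 old mice, so their opposite signs are not independent of each other. The age difference stayed called in 13 of 13 fits with a mouse left out (-1.04 to -0.86). The difference from old-OSKM mice was called in 8 of 13 (0.46 to 0.74), the call being lost without old mouse 3, 4 or 5 or old-OSKM mouse 1 or 2, and was 0.46 and not called without old-OSKM mice 1 and 4. That call was also lost with the 2 groups alone in the fit and with the identifier run as a covariate or the first run only. Between old-OSKM and young mice 0 of the 68 genes were called by limma. Of the 68, 2, 6 and 3 had an unadjusted p under 0.05 in the contrasts of old with young, old-OSKM with old and old-OSKM with young mice, beside the 5.52%, 8.07% and 5.07% of all genes that did. The medians of the 68 genes were -0.0006, -0.0008 and 0.01 in the 3 contrasts, beside 0.001, -0.04 and -0.04 over all genes.

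By role, the 16 writers and cofactors had 1 called gene with age, Cdca7l. Hells, the remodeler that opens heterochromatin to methylation, differed by -0.45 (SE 0.25) and Cdca7 by -0.43 (SE 0.26; adjusted p = 1 for both) between old and young mice. Dnmt3l, a cofactor of germ cell methylation, had constant low values in young (-3.37 to -3.27) and old mice (-3.36 to -3.31) and was not read as a level. Pcna, the replication clamp, which is also in the S phase list, was 0.21 higher in old-OSKM than in old mice (SE 0.08, adjusted p = 0.547) and 0.28 higher than in young mice (SE 0.09, adjusted p = 0.706), both under the fold threshold. Among the 18 readers and partners 0 genes were called in the 3 contrasts by limma, 0 had an unadjusted p under 0.05, and the age differences ran from -0.06 to 0.12. Mbd6, Zbtb38 and the NuRD subunit Mta2 had the lowest p-values with age, at differences of 0.12, 0.12 and 0.09.

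For demethylation and repair 0 of 20 genes were called by limma in any contrast, with 0, 2 and 1 at an unadjusted p under 0.05. The DNA glycosylases Neil3 and Neil2 differed by -0.59 (SE 0.27, adjusted p = 0.904) and 0.85 (SE 0.41, adjusted p = 0.934) with age by limma. Neil3 had a mean of 0.076 RPKM in old mice and Neil2 went down to 0.074 RPKM in young mice, where a low level and a failure to detect cannot be told apart. The cytidine deaminase Apobec1 differed by 0.70 (SE 0.25, adjusted p = 0.547) between old-OSKM and old mice. Apobec1 was at 0.32 and 0.10 in old-OSKM mice 1 and 4, the mice that stand apart. In old-OSKM mice 2 and 3 it was at -0.78 and -0.62, inside the range of the old mice (-1.24 to -0.37). Of the 14 genes of methyl donor and 2-oxoglutarate metabolism 0 were called by limma as well, with 1, 2 and 1 at an unadjusted p under 0.05. Gnmt, which uses up S-adenosylmethionine by methylating glycine, was 0.28 higher in old than in young mice (SE 0.12, adjusted p = 0.843). Mtr, methionine synthase, was 0.17 higher in old-OSKM than in old mice (SE 0.08, adjusted p = 0.547).

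**Figure D5:**
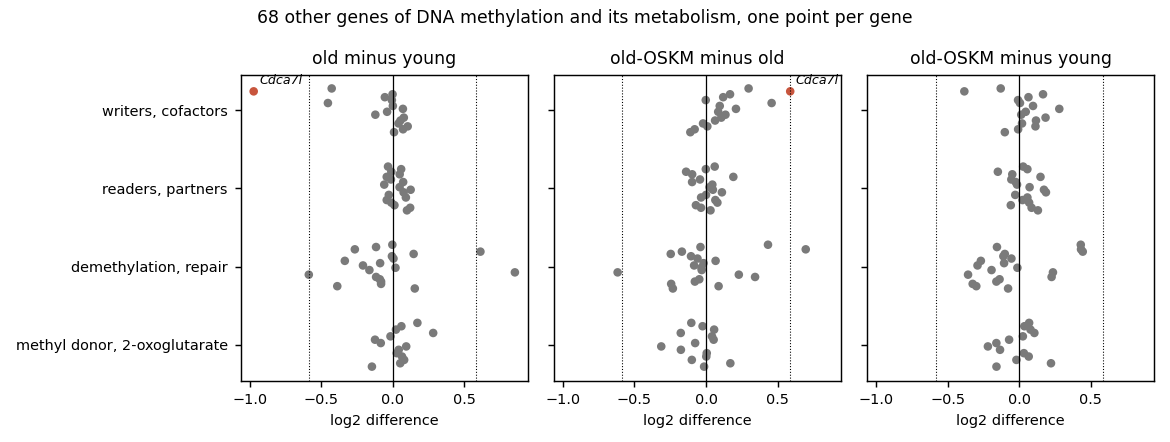
Log2 RPKM differences of 68 other genes in 4 lists (rows), one point per gene, for the 3 contrasts (columns); red points are called and named, and dotted lines mark a 1.5-fold change in either direction. Cdca7l is the called gene in the first 2 contrasts, at -0.97 and 0.59, and 0 genes are called in the last.

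In the list of 14 imprinted and methylation-dependent genes, 2 were called with age, both lower in old mice. Of all genes 0.886% were called in this contrast, 0.437% as lower. The list was chosen with earlier results of these data known, so this count is a description. H19, an imprinted noncoding RNA expressed from the maternal allele, was at -1.71 to -1.04 in young and -3.79 to -3.22 in old mice, a difference of -2.18 (SE 0.38, adjusted p = 0.0796). In old-OSKM mice H19 was at -3.35, -4.74, -3.74 and -2.31, 2.17 below young mice (SE 0.40, adjusted p = 0.208), and below all of them (2.87 below without old-OSKM mice 1 and 4, still called). On the RPKM scale H19 was at 0.072 to 0.108 in old and 0.037 to 0.202 in old-OSKM mice. At such values a low level and a failure to detect the RNA cannot be told apart, so the size of these differences is uncertain. Cdkn1c, an imprinted inhibitor of the cell cycle, was 0.69 lower in old mice (SE 0.21, adjusted p = 0.549), a call kept in 7 of 13 fits with a mouse left out (-0.82 to -0.60) and lost without young mouse 1 or 4 or old mouse 1, 2, 3 or 5. Both H19 calls were kept in 13 of 13 such fits. The median of the list was -0.08 with age. Between old-OSKM and old mice 0 of the 14 genes were called. Without old-OSKM mice 1 and 4, 1 was called as lower in old-OSKM mice, beside 49 of all 23366 genes.

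The genes whose pattern over the 13 mice was most like that of a member, among the 8410 genes with a mean log2 RPKM above 0, are given as a description. For Tet1 they were Anxa13 (Pearson r = 0.87, Spearman rho = 0.75), the acinar protease gene Ctrl (r = 0.86, rho = 0.72) and Map4k4 (r = 0.83, rho = 0.69), each lower in old than in young mice, by 0.34, 0.17 and 0.26. Tet2 was most like Rbpjl (r = 0.94, rho = 0.80), an acinar transcription factor, Wsb1 (r = 0.93) and Myo9a (r = 0.93). Mbd1 was most like Smg1, Bclaf1 and Mga (r = 0.97 for each, with rho = 0.82, 0.84 and 0.69). Dnmt3a was most like Zbtb10 (r = 0.94), Brpf1 (r = 0.91) and Ttll4 (r = 0.90), and Tet3 like Rap1gap (r = 0.91), Tbc1d24 (r = 0.87) and Tbk1 (r = 0.86). Dnmt1 was most like Arhgdib (r = 0.86), Srgn (r = 0.84) and Itsn1 (r = 0.83), and Uhrf1 like Sppl2a (r = 0.85), Lsm2 (r = 0.85) and Elmo2 (r = 0.84). For Mbd2 the genes were Ikbkb (r = 0.90), Zfp280d (r = 0.89) and Ptprm (r = 0.87), and for Dnmt3b they were Tbc1d10b (r = 0.84), Phpt1 (r = 0.83) and Phf2 (r = 0.82). All of these rest on the same 13 libraries and were the highest over all genes compared. They were not calculated without old-OSKM mice 1 and 4, and old-OSKM mouse 4 was the highest of the 13 for both Tet2 and Mbd1. Between members the highest of 36 values were those of Tet3 with Dnmt3a (r = 0.74) and of Mbd2 with Mbd1 (r = 0.74), which became 0.43 and 0.37 without old-OSKM mice 1 and 4. The pair of Tet3 and Tet2 was at 0.66 with and 0.65 without these mice, and the pair of Mbd1 and Tet2 at 0.65 with and -0.22 without them.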

How the data were processed

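RNA sequencing was analysed for the pancreas of 13 female mice with 1 library per mouse, in the groups that the labels give. Libraries were rRNA-depleted and prepared with a kit that does not mark strand, so that reads of a gene and of an overlapping antisense transcript cannot be told apart. The authors aligned paired reads to mm10 with STAR 2.3.0e, leaving out reads that map to 5 or more places, estimated RPKM per isoform with Casper, added these up per Entrez gene and quantile normalized the log2 values. The log2 RPKM deposited for 23366 genes were used as they are, without pseudocount or filter (the sorted values of the 13 mice differ by at most 0.0116). A correction by total reads that the methods describe is not in these values, and the methods give 1 general number of reads for all samples but no counts or totals for each library, so counting error is unknown. Reads shared between similar genes are split by a model in such estimates.

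The 3 groups were fitted together with limma 3.58.1 in R 4.3.3 (default eBayes, no covariate), and each pair of groups was contrasted. The fit was tested on simulated data. Exact permutation tests per member and sign-flip tests between neighbouring levels were run in Python 3.11.15, and figures drawn with matplotlib 3.10.9. The members and gene lists were chosen with earlier results of these data known. Genes named beyond the 9 members were, per contrast, the called genes and up to 3 with the lowest p of each list (not all are discussed, and 1 is not reported here), Mki67, Top2a and Mcm5, and the 3 genes most like each member. Groups with a mean below -1 and all mice within 0.1 of each other were read as constant low values. Alternatives were pseudocounts of 1 and 0.1, filters on the mean log2 RPKM, repeated quantile normalization, median centring, the 2 groups alone, eBayes with a trend and robust settings, the run of sample identifier numbers (609 to 621 against 641 to 643), and each mouse left out in turn. Leaving out old-OSKM mice 1 and 4 together was added after the data were seen. Nothing says whether identifier runs mark a preparation. Protein sequences of the members were not used here.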

Additional observations from a re-analysis of the deposited data

Results flagged for a closer look

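In 4 of the 27 groups of member values, 1 mouse lay far from the others by Dixon's test of the gap to the nearest mouse, which chance passes in about 1 of 20 groups. Dnmt1 in young mouse 3 was at 0.70, above the other young mice. Dnmt3b in old-OSKM mouse 1 was at -1.86, below the other old-OSKM mice. Tet2 in old-OSKM mouse 4 was at 0.60 and Mbd1 in the same mouse at 1.27, both above the other old-OSKM mice. Old-OSKM mice 1 and 4 are those that stood apart over all genes, and young mouse 3 is the one with the high sum of liver genes.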

How the results depend on the processing

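No paired analysis was made, because the groups consisted of different mice. The methods state 1 general number of reads but no total or counts for each library, so low genes such as Tet1, Dnmt3b and Uhrf1 cannot be given a counting error. Tet1 was lower in old than in young mice under every alternative that tested it, and its call was lost where a pseudocount shrinks the fold of a low gene: the differences were -0.52 with a pseudocount of 0.1 and -0.17 with a pseudocount of 1 for old against young mice, and -0.46 and -0.15 for old-OSKM against young mice. Members called fell from 1 to 0 in both contrasts with either pseudocount and with the filter on a mean log2 RPKM above 0, which removes Tet1, and for old-OSKM against young mice also without old-OSKM mice 1 and 4. The 68 other genes had 0 called with a pseudocount of 1 in both contrasts in which 1 was called, and 0 with a pseudocount of 0.1 between old-OSKM and old mice. The filter on a mean log2 above 0, which removes Cdca7l, also left 0 in both, and between old-OSKM and old mice 0 were called with the 2 groups alone, the identifier run as a covariate, the first run only or without old-OSKM mice 1 and 4 (these settings were added for this list after the data were seen). With each mouse left out in turn the count ranged from 1 to 2 with age and from 0 to 2 between old-OSKM and old mice.

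Genes called between old and young mice went from 207 to 16 with a pseudocount of 1, 116 with 0.1, 44 with a mean log2 above 0 and 136 above -2. For old-OSKM against old mice they went from 176 to 2, 77, 35 and 104 under the same settings and to 80 without old-OSKM mice 1 and 4. For old-OSKM against young mice they went from 146 to 8, 76, 19 and 81. With each mouse left out in turn the counts ranged from 175 to 280, from 94 to 338 (94 without old-OSKM mouse 1, 338 without mouse 2 and 284 without mouse 3) and from 121 to 253 (253 without old-OSKM mouse 2), members called between old-OSKM and young mice ranged from 0 to 1, 0 exact tests passed after adjustment and 6 of 8 pairs of neighbouring levels passed in each fit.

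Uncalled differences that changed sign were, within sample identifiers 609 to 621, Dnmt1 (0.013) and Dnmt3b (-0.42) with age and Tet3 (-0.030) between old-OSKM and old mice, and with the identifier run as a covariate Dnmt3b (-0.040) with age and Tet3 (-0.019). Without old-OSKM mice 1 and 4 they were, against old mice, Dnmt3b (0.10), Tet2 (-0.062), Mbd1 (-0.13) and Mbd2 (-0.062), and against young mice Dnmt3b (0.18), Tet2 (-0.17), Mbd1 (-0.0066) and Mbd2 (-0.034). With a mouse left out, signs changed in these ranges: with age Uhrf1 (-0.49 to 0.14), Dnmt3a (-0.040 to 0.056) and Dnmt3b (-0.25 to 0.32), against old mice Uhrf1 (-0.027 to 1.04), Dnmt3a (-0.14 to 0.075), Dnmt3b (-0.28 to 0.097), Tet2 (-0.046 to 0.20), Tet3 (-0.066 to 0.073), Mbd1 (-0.12 to 0.14) and Mbd2 (-0.050 to 0.040), and against young mice Uhrf1 (-0.28 to 0.78), Dnmt3a (-0.14 to 0.070), Dnmt3b (-0.44 to 0.17), Tet2 (-0.15 to 0.092) and Mbd2 (-0.022 to 0.068). The cause was not tested.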
